A study of Mus musculus with 60 samples.

Results

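Transcription factor genes of cortical excitatory neurons and cortical layers were followed through RNA-Seq libraries of the mouse brain: Tbr1, Neurod1, Neurod2, Neurod6, Fezf2, Cux1, Cux2, Rorb and Mef2c. They were taken by gene symbol, each has 1 entry, and they make up 9 of the 47574 gene entries used. The study compared c57BL-6N mice aged 3 months that carry Htt alleles with a deletion in exon 12. The labels name 60 libraries in 10 groups of 6, each with 3 males and 3 females. Title and genotype field disagree on the line (Δ12 against KO) for the striatum library KO/+ female 3, which was grouped by the genotype field. In cortex and in striatum these are Δ12-line +/+, Δ12-line Δ12/+ and Δ12-line Δ12/Δ12, together with KO-line +/+ and KO-line KO/+. The Δ12 allele lacks the part of exon 12 that an alternative splice form skips, and the KO allele, kept from 1 founder, is a repair error that left the exon without its splice donor. Both alleles are germline, so every cell type of a brain carries them. Levels are FPKM (fragments scaled by transcript length and by sequencing depth) divided by a scaling factor for each library, and are called rescaled FPKM.

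Pyramidal neurons of the cortex arise from progenitors that switch on the basic helix-loop-helix factors of the Neurod family and then the T-box factor Tbr1, and they use glutamate, which the transporter encoded by Slc17a7 loads into vesicles. Layer identity is set by further factors: Tbr1 and Fezf2 are known for the deep layers, Cux1 and Cux2 for the upper layers and Rorb for layer IV, while Mef2c, a MADS-box factor, acts in activity-dependent maturation. Striatal projection neurons are inhibitory and derive from another progenitor zone, so a dissected striatum is known to hold few cells with Tbr1 or Neurod6.

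The labels did not go with the expression of regional genes in part of the libraries, and the libraries are therefore also described by a rule on expression. The 30 libraries with Slc17a7 above 100 FPKM are called cortex-like and the other 30 striatum-like. The library nearest to the limit from above had 120.8 FPKM and the nearest from below 64.8 FPKM. Each class held 15 libraries labelled cortex and 15 labelled striatum. In the Δ12 line, +/+, Δ12/+ and the males among Δ12/Δ12 were cortex-like by this rule. All KO-line libraries were striatum-like, and so were the Δ12/Δ12 females. The labelled sex matched sex-linked transcripts in 30 of 60 libraries, and 6 of the 12 libraries labelled KO/+ had Htt at or above the lowest library labelled +/+ of the same line and tissue. Since a measured gene defines the classes, differences between them are a description and carry no test, and line, class and most labelled genotypes cannot be told apart.

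The class names were checked against regional genes. All 9 genes of the striatal projection neuron list had separate ranges, each higher in the striatum-like libraries, against 36.2% of all genes in either direction. Drd2, the dopamine receptor of one kind of striatal projection neuron, had a median of 50.2 rescaled FPKM (34.8 to 71.3) there and of 0.809 (0 to 15.9) in cortex-like libraries. Of the 6 genes listed for cortical excitatory neurons, 4 had the higher median in cortex-like libraries, while Camk2a and Nrgn were 2.12-fold and 2.54-fold higher in striatum-like ones. Cortex-like libraries also held genes listed for the olfactory bulb: the summed level of these 3 genes was 40.6 rescaled FPKM (5.54 to 75.8) there and 1.01 (0.347 to 1.63) in striatum-like libraries. Layer genes went both ways. Higher medians in cortex-like libraries were found in 3 of 7 genes of upper layers and layer IV and 5 of 9 of deep layers. The deep-layer sum was 118 rescaled FPKM (97.6 to 172) in cortex-like and 184 (149 to 238) in striatum-like libraries. In the same order, the upper-layer sum was 99.0 (73.1 to 120) and 79.8 (61.4 to 102). The excitatory sum was 382 (324 to 524) and 475 (340 to 637). The name cortex-like thus stands for the rule on Slc17a7 and not for cortex alone.

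At least 3 libraries stood apart from their groups in several of the 9 genes. The first, female 1 of the cortex +/+ group in the Δ12 line, had 14912 entries above 0, the fewest of all, and Neurod1 at 0, Neurod6 at 11.3 and Cux2 at 8.49 rescaled FPKM, against 1.24 to 2.54, 1.96 to 4.40 and 2.53 to 6.74 in the other 5 of its group. The second, male 3 of the striatum Δ12/+ group, had Slc17a7 at 104, Drd2 at 15.9 and Cux1 at 8.84, against 147 to 178, 0.185 to 3.88 and 3.54 to 6.12. The third, female 1 of the cortex Δ12/+ group, had Tbr1 at 8.57, Neurod2 at 7.91, Cux2 at 5.37, Rorb at 9.18 and Mef2c at 72.1, each above the other 5 of its group.

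The promoters of Neurod2, Neurod6 and Tbr1 are shown because the levels of these 3 genes went together across striatum-like libraries, as described below. Each run holds the 250 bases before the RefSeq start, read 5′ to 3′ on the strand of the gene in GRCm38.p6. The interval is chr11:98329646-98329895 on the reverse strand for Neurod2, chr6:55681264-55681513 on the reverse strand for Neurod6 and chr2:61804203-61804452 on the forward strand for Tbr1. Capitals mark CAGATG, an E-box that factors of the Neurod family are known to bind, searched on both strands.
Neurod2: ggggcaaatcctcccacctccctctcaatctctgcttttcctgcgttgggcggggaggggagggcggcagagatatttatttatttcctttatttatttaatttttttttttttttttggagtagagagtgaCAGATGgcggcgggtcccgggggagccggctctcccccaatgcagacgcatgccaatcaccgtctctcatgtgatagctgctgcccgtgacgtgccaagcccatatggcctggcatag
Neurod6: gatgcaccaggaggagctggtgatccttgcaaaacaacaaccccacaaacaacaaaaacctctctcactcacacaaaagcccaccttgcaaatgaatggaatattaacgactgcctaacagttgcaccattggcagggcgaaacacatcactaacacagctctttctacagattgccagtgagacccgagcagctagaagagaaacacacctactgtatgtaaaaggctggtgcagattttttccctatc
Tbr1: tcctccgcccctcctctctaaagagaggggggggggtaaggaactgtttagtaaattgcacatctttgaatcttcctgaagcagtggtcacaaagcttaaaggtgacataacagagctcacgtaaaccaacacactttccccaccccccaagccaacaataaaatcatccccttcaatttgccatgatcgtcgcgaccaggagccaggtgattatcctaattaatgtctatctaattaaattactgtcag
The E-box stood 118 bases before the start of Neurod2 and was absent from these windows of Neurod6 and Tbr1. Of the 13 listed promoters of the 9 genes, 3 held it: that of Neurod2, 1 of Cux2 and 1 of Mef2c. It was present in 14.4% of 32851 promoter windows of the same length, and the wider E-box CANNTG, which includes it, in 66.2%. The window of Tbr1 and those of Cux2 and Mef2c that held CAGATG lie within the annotated spans of these genes. They precede a RefSeq start inside the span and not the outermost start.

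Cux1, a homeodomain factor, and Mef2c were the 2 of the 9 genes whose ranges did not overlap between the 30 cortex-like and the 30 striatum-like libraries. Over all genes, 5819 of 16076 (36.2%) had separate ranges, 2712 with the higher values in cortex-like and 3107 in striatum-like libraries. A share of 2 in 9 was therefore no larger than that of all genes. On FPKM as deposited, 4 of the 9 had separate ranges (Neurod2 and Fezf2 in addition), against 30.8% of all genes. Without the first 2 libraries that stood apart there were also 4 (Neurod1 and Neurod2 in addition), against 39.1%, and without all 3 of them 4, against 39.6%. On GRCm38, Cux1 spans chr5:136248135-136567490 on the reverse strand and Mef2c spans chr13:83504034-83667080 on the forward strand, with 14 and 31 annotated transcripts.

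Neurod2 was at a median of 5.28 rescaled FPKM (2.84 to 7.91) in cortex-like libraries and 0.488 (0.0797 to 3.41) in striatum-like ones, a ratio of 10.8. Neurod6, a factor of differentiated pyramidal neurons, was at 3.94 (1.96 to 11.3) and 0.643 (0.0277 to 2.83), a ratio of 6.13. Neurod1, which acts as granule and pyramidal neurons differentiate, was at 1.84 (0 to 2.83) and 0.109 (0 to 0.330), a ratio of 16.9. All 3 genes were higher in cortex-like libraries, and the overlap came from few libraries. It rested on 2 cortex-like libraries for Neurod2 and on 1 each for Neurod1 and Neurod6. Neurod1 was listed at 0 in 1 cortex-like and 4 striatum-like libraries. Over the 26 striatum-like libraries above 0, Neurod1 had a median of 4.17 fragments. It lies within Cerkl, a gene on the same strand with a median of 2.04 rescaled FPKM in cortex-like and 0.370 in striatum-like libraries, so the split of shared reads between both genes is uncertain.

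Tbr1 was at 4.66 rescaled FPKM (2.43 to 8.57) in cortex-like and 1.26 (0.356 to 6.11) in striatum-like libraries. Fezf2, a zinc finger factor of corticospinal neurons, was at 2.33 (1.47 to 3.35) and 0.698 (0.177 to 1.79). The ratios of medians were 3.71 and 3.34, smaller than for the Neurod genes. Tbr1 overlapped more than Fezf2: 8 striatum-like libraries reached the lowest cortex-like value, and 27 of 30 cortex-like libraries lay below the highest striatum-like one. The deposited 95% intervals of Fezf2 in striatum-like libraries had a median half-width of 40.0% of its FPKM, against 20.6% in cortex-like libraries.

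Cux1 went the other way. Its level was 4.49 rescaled FPKM (2.46 to 8.84) in cortex-like and 22.8 (20.0 to 26.9) in striatum-like libraries, 5.09-fold higher in the latter. Its coefficient of variation over the 30 striatum-like libraries was 6.41%, the smallest among the 9 genes in either class. Cux2, its paralog, was at 3.90 (2.53 to 8.49) and 5.16 (3.10 to 9.66), with ranges that overlapped almost fully. The deposited intervals of Cux2 were wide, with a median half-width of 43.3% of its FPKM in cortex-like libraries. Cux2 has 11 annotated transcripts, so these intervals do not give its number of fragments. The Cux1 locus also makes the transcript of CASP, a Golgi protein that lacks the homeodomains, and gene-level FPKM do not separate the 2 products.

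Rorb, an orphan nuclear receptor, was at 6.87 rescaled FPKM (2.95 to 11.6) in cortex-like and 5.13 (3.94 to 8.32) in striatum-like libraries. All 30 striatum-like libraries lay above the lowest cortex-like one, which was the first of the libraries that stood apart. Without the first 2 of those, the lowest cortex-like value was 4.48 and the ranges still overlapped, so Rorb did not separate the classes. Mef2c was at 58.5 (46.2 to 94.0) and 28.3 (22.7 to 43.4), a ratio of 2.07. Its median was the highest of the 9 genes in both classes, per length of transcript. Below it in cortex-like libraries came Rorb, Neurod2, Tbr1, Cux1, Neurod6, Cux2, Fezf2 and Neurod1, and every neighbouring pair from Rorb down had overlapping ranges. In striatum-like libraries Cux1 came next, separate from Cux2 below it, followed by Rorb, Tbr1, Fezf2, Neurod6, Neurod2 and Neurod1. There Rorb was exceeded by Cux2 in 17 of 30 libraries, and Neurod6 was above Neurod2 in 15 of 30.

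**Figure D1:**
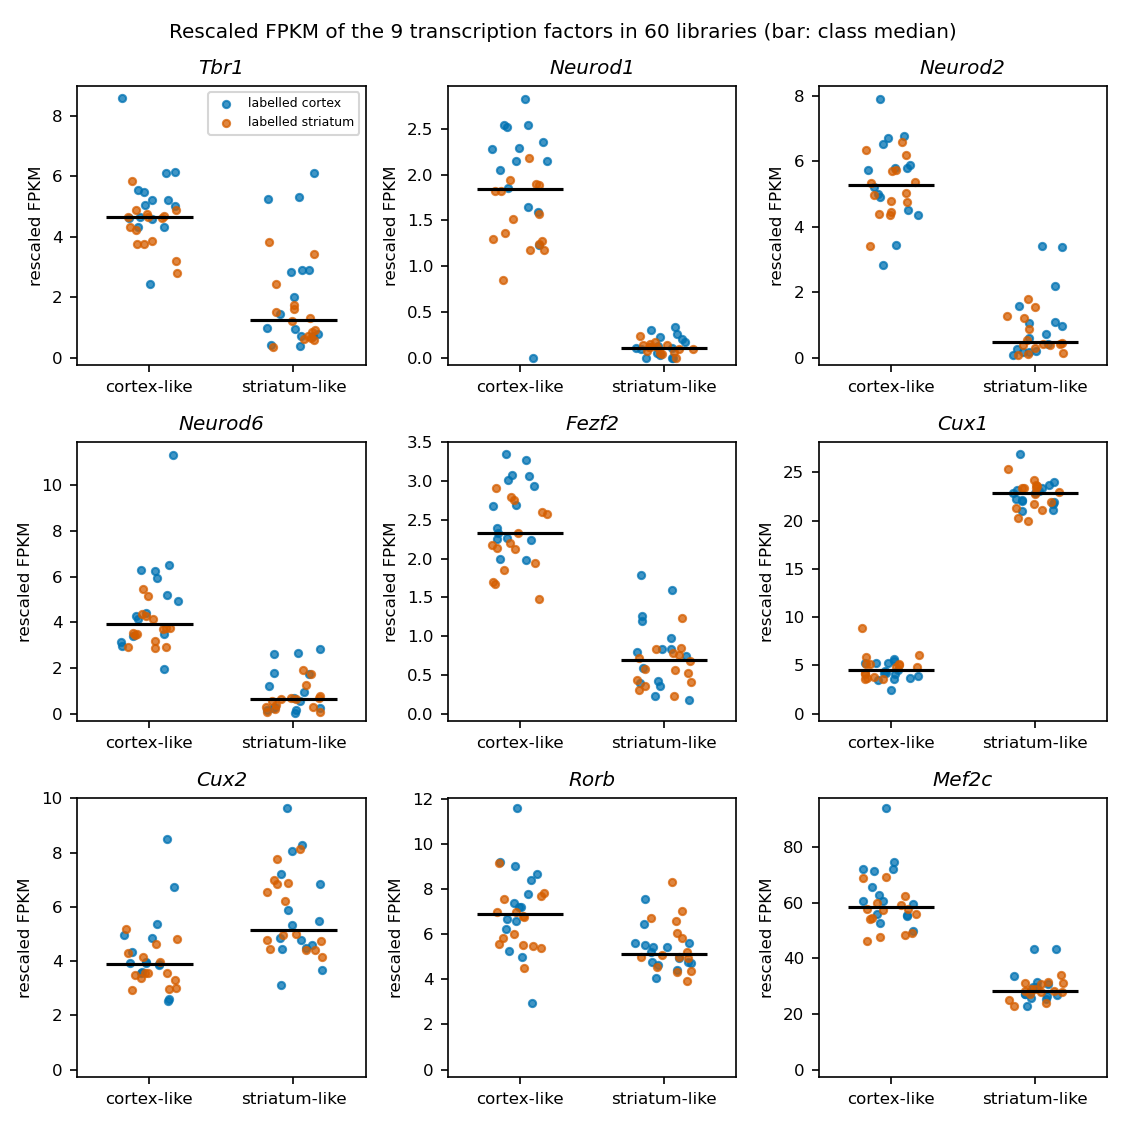
Rescaled FPKM (y axis) of the 9 transcription factors in cortex-like and striatum-like libraries (x axis). Each point is 1 of 60 libraries, coloured by labelled tissue, and bars are class medians. Cux1 and Mef2c have separate ranges, Cux1 with the higher values in striatum-like libraries and Mef2c in cortex-like ones.

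Other cortical transcription factors were found on both sides. Of 30 such genes, 13 had separate ranges, 3 higher in cortex-like and 10 higher in striatum-like libraries, against 36.2% of all genes. Emx1, a homeobox gene of the dorsal telencephalon, was at 7.02 rescaled FPKM (4.33 to 9.14) against 0.237 (0.0351 to 1.34). Bcl11b, which is known in deep-layer and in striatal projection neurons, ran from 4.54 to 27.0 against 42.3 to 101, with a median 11.1-fold higher in striatum-like libraries. Paralogs of the 9 genes differed from them: Mef2d was at 13.3 (8.65 to 17.7) against 34.9 (27.9 to 42.2) and Rora at 4.99 (2.41 to 8.12) against 14.5 (10.3 to 32.1). Mef2d and Rora were thus higher in striatum-like libraries, where Mef2c and Rorb had the lower medians.

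Within the 30 striatum-like libraries, Tbr1, Neurod2, Neurod6 and Fezf2 rose and fell together. Pearson's r of log2(rescaled FPKM + 0.5) was between 0.74 and 0.95 over their 6 pairs, and the highest was that of Tbr1 with Neurod2 (Spearman's rho 0.92, r 0.93 without the 2 libraries farthest from the median of Tbr1). With Slc17a7, r was 0.91 for Tbr1, 0.92 for Neurod2, 0.89 for Neurod6 and 0.68 for Fezf2, and rho was 0.86, 0.88, 0.87 and 0.61. Without the 2 libraries farthest from the median of Slc17a7, r was 0.88, 0.89, 0.86 and 0.54. Over 13974 genes of these libraries, 2.18% had r with Slc17a7 over 0.5 and 0.0930% over 0.85. These are descriptions over libraries that differ in depth. Tissue handling and base composition can differ between them too, and the part of such differences in r was not tested. In bulk libraries, fewer cells of a type and less RNA per cell cannot be told apart.

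The end points show the size of that spread. In the library with the lowest Slc17a7, labelled cortex Δ12/Δ12 female 2, Neurod2 stood at 3.56% of the cortex-like median and Tbr1 at 8.73%. In the library with the highest, labelled cortex KO/+ male 3, Slc17a7 stood at 42.4%, Neurod2 at 63.9%, Neurod6 at 71.9% and Tbr1 at 131% of the cortex-like median. Cux1 did not follow Slc17a7: it stood at 513% and 521% in the same 2 libraries. The genes nearest to Tbr1 by r in striatum-like libraries were Nr4a2 (0.93) and Nxph3 (0.92), those nearest to Neurod2 were Tbr1 (0.95) and Slc17a7 (0.92), and those nearest to Neurod6 were Tbr1 (0.94) and Prss12 (0.91).

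In the 30 cortex-like libraries r over the pairs of the same 4 genes was between -0.10 (Neurod2 with Neurod6) and 0.67 (Tbr1 with Neurod2). Without the 2 libraries farthest from the median of the first gene, these values were 0.23 and 0.52. Slc17a7 had a coefficient of variation of 10.6% in this class and of 74.9% in the striatum-like one, and the 2 sets of correlations were not tested against each other. The highest r among all 36 pairs there was 0.81, for Neurod1 with Rorb (rho 0.71, r 0.70 without 2 libraries). Nearest to Rorb was Megf9 (0.85), and nearest to Fezf2 were Lamp5 (0.66), a gene of upper layers and interneurons, and Ywhab (0.65).

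**Figure D2:**
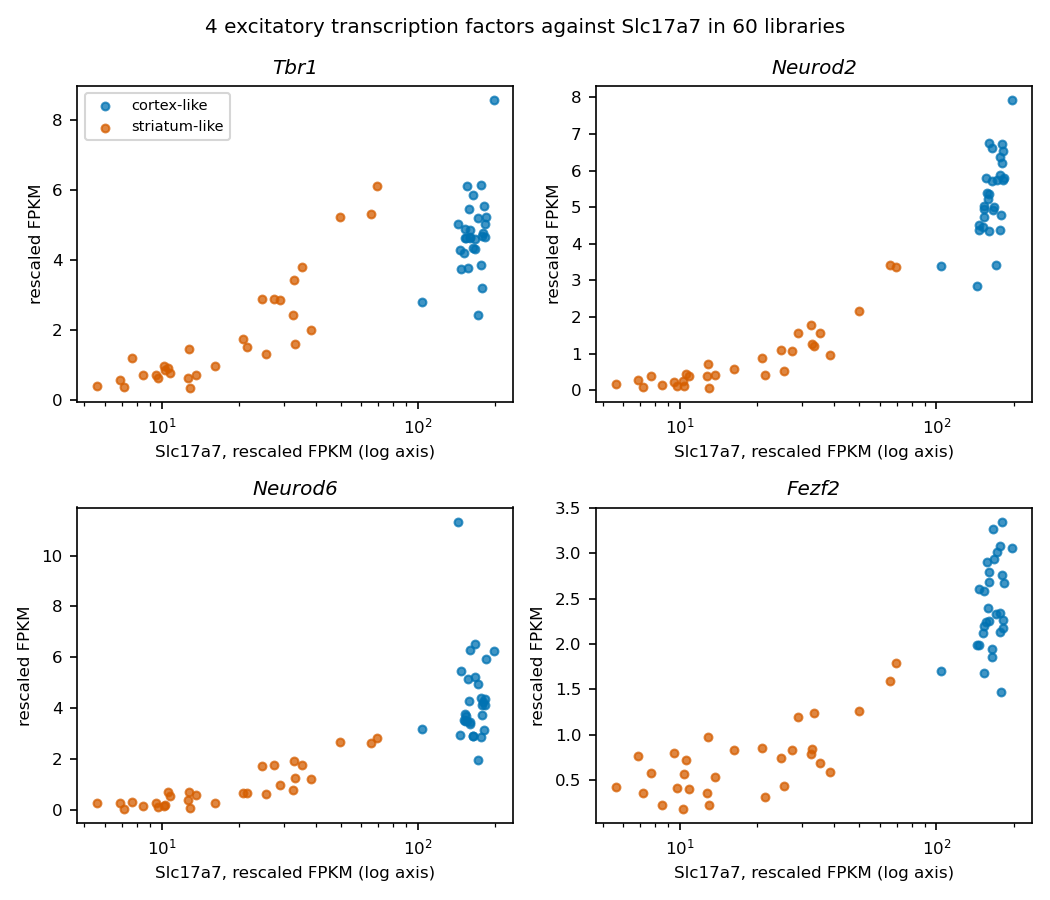
Rescaled FPKM of Tbr1, Neurod2, Neurod6 and Fezf2 (y axes) against that of Slc17a7 (x axis, log scale) in 60 libraries. Striatum-like libraries form a slope in which the 4 genes increase with Slc17a7, and cortex-like libraries lie at 104 rescaled FPKM of Slc17a7 or more.

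Levels were also set beside those of genes of other cells within striatum-like libraries, in comparisons chosen after seeing the data. Cux2 had r = -0.75 with Drd2 (rho -0.78, -0.71 without 2 libraries) and -0.74 with the summed level of the 9 striatal projection neuron genes. Rorb had r = 0.83 with the summed level of 4 genes listed for the thalamus (Prkcd, Tcf7l2, Slc17a6 and Lef1), with rho 0.80 and r 0.82 without 2 libraries. Rorb also had r = 0.66 with the summed oligodendrocyte genes Mobp and Mog (rho 0.74, 0.75 without 2 libraries) and -0.56 with the striatal projection neuron sum. Cux2 had 0.60 with the thalamus sum, so neither gene went with 1 list alone. Such values were not particular to Cux2 and Rorb. With the oligodendrocyte sum, r was -0.55 for Tbr1, -0.57 for Neurod2, -0.59 for Neurod6, -0.59 for Fezf2 and -0.57 for Mef2c. It was -0.25 for Cux1, 0.20 for Cux2 and 0.23 for Neurod1. Rorb is also known from sensory nuclei of the thalamus. The same thalamus sum had r = -0.0018 with Rorb in cortex-like libraries, where it lay between 4.45 and 14.1 rescaled FPKM, against 5.61 to 105 in striatum-like ones.

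The labelled tissues were compared to ask whether the 9 genes separate cortex from striatum as labelled. With limma on unpaired libraries and Benjamini-Hochberg adjustment, 0 of 9 were called at an adjusted p under 0.05. The share over all genes was 0% of the 16076 tested. At an unadjusted p under 0.05 there were 3 of the 9 genes and 953 of all genes. The log2 difference, labelled cortex minus labelled striatum, was 0.27 for Tbr1 (95% interval 0.018 to 0.53, adjusted p = 0.827 from limma), 0.19 for Fezf2 (0.032 to 0.35, adjusted p = 0.817) and 0.072 for Cux2 (-0.10 to 0.25, adjusted p = 0.921). Within cortex-like libraries 0 of 9 genes were called (0% of 15232 genes), with 2 of the 9 and 1040 of all genes at an unadjusted p under 0.05 from limma. Within striatum-like libraries 0 of 8 tested were called (0% of 15959), with 0 of the 8 and 569 of all genes at an unadjusted p under 0.05. Neurod1 was too low there for the test, which needed a mean of at least 0.5 rescaled FPKM.

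In libraries labelled striatum, KO/+ was compared with +/+ of the KO line, all of them striatum-like. Limma called 2 of the 8 genes tested, Rorb and Fezf2, against 6.91% of 15808 genes. Rorb was at 6.65 rescaled FPKM (5.83 to 8.32) in +/+ and 4.95 (3.94 to 5.22) in KO/+, and fell by 0.45 on the log2 scale with an error of 0.080 (limma adjusted p = 0.00998, 6 against 6 libraries). Fezf2 was at 0.380 (0.224 to 0.567) in +/+ and 0.737 (0.579 to 0.836) in KO/+, and rose by 0.48 on that scale with an error of 0.092 (limma adjusted p = 0.0129). Neither gene overlapped between the groups, as was the case for 4.58% of all genes. Fezf2 was near the filter of 0.5: on FPKM as deposited and after quantile normalization it fell below it and was not tested. Both calls rest on the choice of fit: with the replicate number as a block, limma gave an adjusted p of 0.0628 for Rorb and 0.0609 for Fezf2, and without the filter 0.0358 and 0.0512. Without the library whose title and genotype field differ, limma gave 0.0239 and 0.0205.

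Genes of other cells were called as well, in a comparison with 6.91% of all genes called. All 4 thalamus genes fell in KO/+, with log2 fold changes from -2.54 for Slc17a6 and -2.46 for Prkcd to -0.69 for Lef1. Their summed level was 66.1 rescaled FPKM (42.8 to 70.5) in +/+ and 12.6 (7.72 to 16.8) in KO/+, with no overlap. Of the 9 striatal projection neuron genes, 7 rose and 0 fell, and their sum was 1379 (1209 to 1629) in +/+ and 1957 (1704 to 2207) in KO/+. No gene of either list was at 0 in any striatum-like library. The part of these cells in the results for Rorb and Fezf2 was not tested.

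**Figure D3:**
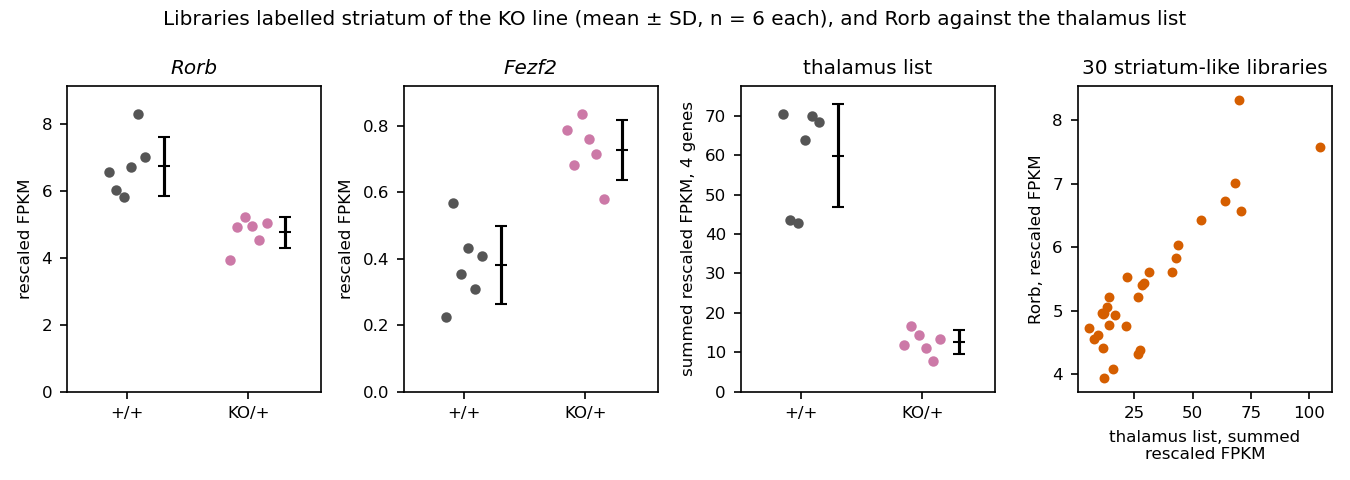
Rorb, Fezf2 and the summed thalamus list (y axes, rescaled FPKM) in the 6 libraries labelled +/+ and the 6 labelled KO/+ of the striatum of the KO line, with mean ± SD beside the points, and Rorb against the thalamus list in the 30 striatum-like libraries. Rorb and the thalamus list are lower and Fezf2 is higher in KO/+, without overlap.

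The remaining genes of this comparison did not pass the test. Neurod2 had a log2 fold change of 0.81 (adjusted p = 0.0972 from limma), Tbr1 of 0.77 (95% interval 0.010 to 1.53, adjusted p = 0.223 from limma), Cux2 of -0.41 (-0.71 to -0.11, adjusted p = 0.0970) and Cux1 of -0.012 (-0.15 to 0.13). In KO/+, the 3 libraries labelled male had Slc17a7 at 32.4, 35.2 and 32.8 rescaled FPKM and Neurod2 at 1.78, 1.56 and 1.27. The 3 labelled female had Slc17a7 at 6.86, 10.6 and 7.67 and Neurod2 at 0.292, 0.438 and 0.399. Neurod2 therefore went with Slc17a7 within the group, and the difference of its fold change between labelled sexes was 1.49 (adjusted p = 0.285 from limma). Among the 30 other cortical transcription factors, 24 were tested. Of these, 4 rose (Mef2d and Bcl11b among them) and 2 fell (Rora and Zfpm2), against 6.91% of all genes called. Rora, the paralog of Rorb, fell by 0.81 on the log2 scale.

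In libraries labelled cortex, KO/+ against +/+ of the KO line gave 0 of 8 called by limma, with 3 of the 8 at an unadjusted p under 0.05. The share over all genes was 0.0885%, with 2202 of 15820 genes at an unadjusted p under 0.05. Tbr1 was at 0.972 rescaled FPKM (0.369 to 2.90) in +/+ and 4.06 (0.702 to 6.11) in KO/+ (log2 fold change 1.00, 95% interval -0.057 to 2.05, adjusted p = 0.384 from limma). Fezf2 had 0.65 (0.13 to 1.16, adjusted p = 0.256) and Cux2 0.22 (-0.22 to 0.66, adjusted p = 0.661). Rorb had -0.075 (-0.25 to 0.098). The difference between the 2 labelled tissues in the fold change of Rorb was 0.38 (adjusted p = 0.307 from limma). The thalamus sum was 28.9 (11.4 to 41.0) in +/+ and 12.7 (5.61 to 26.6) in KO/+ there, and the ranges overlapped.

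Δ12/Δ12 was compared with +/+ of the Δ12 line to ask whether the homozygous allele changes these genes. In libraries labelled striatum, limma called 3 of 9 genes, against 28.3% of 15467 genes: Neurod2 at -1.18 ± 0.36 (log2 difference ± standard error, limma adjusted p = 0.0402), Neurod6 at -1.03 ± 0.23 (0.0298) and Cux2 at 0.47 ± 0.16 (0.0499). Tbr1 had -0.75 (95% interval -1.40 to -0.094, adjusted p = 0.0714) and Fezf2 had -0.52 (-0.95 to -0.095, adjusted p = 0.0604). The group Δ12/Δ12 was split, since its 3 libraries labelled male were cortex-like and its 3 labelled female striatum-like. Neurod2 was at 5.04, 5.35 and 5.72 in the former and at 0.417, 0.890 and 1.23 in the latter, against 4.45 to 6.60 in +/+. Neurod6 was at 2.90, 3.44 and 3.47 in the former and at 0.569, 0.654 and 1.26 in the latter, against 2.92 to 5.14 in +/+. All 3 libraries labelled female lay below every +/+ library in both genes. Cux2 was at 3.50, 4.62 and 5.18 and at 4.97, 4.98 and 7.77, against 2.96 to 4.28. Drd2 was at 0.621 to 1.00 and 41.2 to 54.7 in the same libraries. With the labelled males alone, the log2 fold change of Neurod2 was -0.094, and limma called 0 of 9 genes. The calls also fell to 0 when any of the 6 libraries labelled female was left out.

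In libraries labelled cortex, the same comparison gave 0 of 9 genes called by limma, with 4 of the 9 at an unadjusted p under 0.05. The share over all genes was 0.924%, with 5978 of 15696 genes at an unadjusted p under 0.05. Tbr1 had a log2 fold change of -0.89 (95% interval -1.83 to 0.047, adjusted p = 0.147 from limma), Fezf2 of -0.92 (-1.56 to -0.29, adjusted p = 0.0706) and Cux2 of 0.29 (-0.24 to 0.82, adjusted p = 0.387). The group Δ12/Δ12 was split here too, with 3 cortex-like libraries labelled male and 3 striatum-like ones labelled female. The log2 fold change of Tbr1 was 0.24 with the labelled males alone and 0.27 with Slc17a7 as a covariate. Slc17a7 defines the classes by which this group was split, so the fit with it cannot tell the allele from the class. Cux1 was at 4.42, 4.56 and 5.28 rescaled FPKM in libraries labelled male Δ12/Δ12 and at 21.0, 21.1 and 23.0 in those labelled female. Mef2c was at 55.2, 71.3 and 74.6 in the former and 22.9, 26.5 and 27.1 in the latter.

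**Figure D4:**
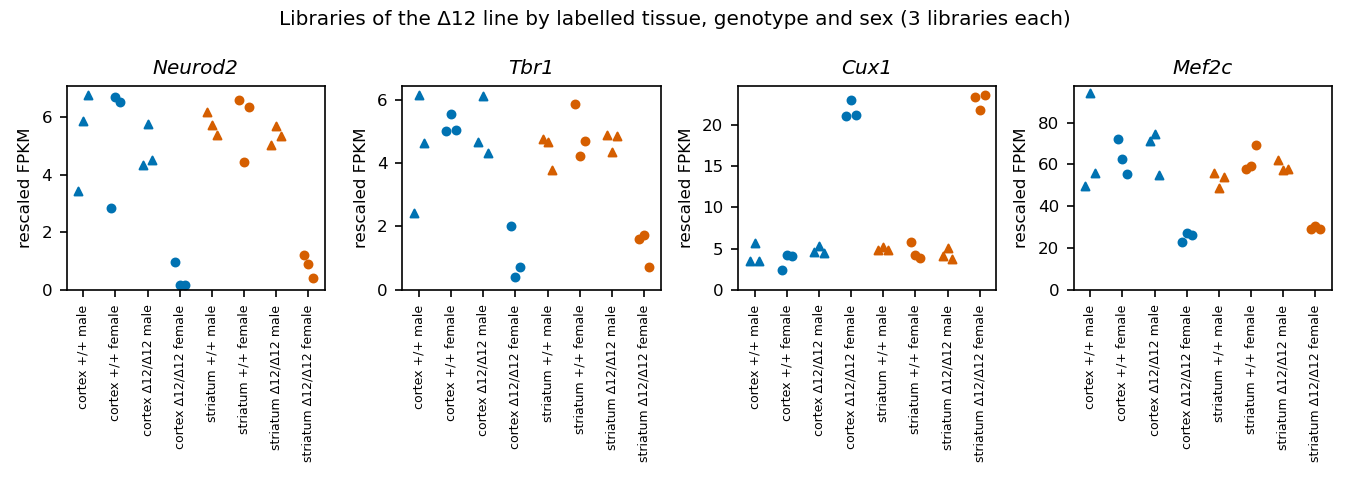
Rescaled FPKM (y axes) of Neurod2, Tbr1, Cux1 and Mef2c in the libraries labelled +/+ and Δ12/Δ12 of the Δ12 line, by labelled tissue and sex (x axes, 3 libraries each, triangles for males, circles for females, blue for cortex and orange for striatum). The libraries labelled female Δ12/Δ12 stand apart in both labelled tissues, with Cux1 at 21.0 or more.

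Δ12/+ was compared with +/+ of the Δ12 line among cortex-like libraries alone. In libraries labelled cortex, limma called 0 of 9 genes, with 0 of the 9 at an unadjusted p under 0.05. The share over all genes was 0.0662%, with 1263 of 15095 genes at an unadjusted p under 0.05. Tbr1 was at 5.03 rescaled FPKM (2.43 to 6.14) in +/+ and 5.21 (4.33 to 8.57) in Δ12/+ (log2 fold change 0.21, 95% interval -0.24 to 0.66, adjusted p = 0.763 from limma). Fezf2 had 0.17 (-0.12 to 0.46, adjusted p = 0.727) and Cux2 had -0.11 (-0.62 to 0.40, adjusted p = 0.903). In libraries labelled striatum, limma called 0 of 9 genes, with 1 of the 9 (Neurod2, log2 fold change -0.35) at an unadjusted p under 0.05. The share over all genes was 0.00663%, with 486 of 15077 genes at an unadjusted p under 0.05. Tbr1 had -0.27 (-0.56 to 0.023), Fezf2 had -0.22 (-0.47 to 0.030) and Cux2 had 0.064 (-0.21 to 0.33), each with an adjusted p of 1.00 from limma. The intervals of Tbr1 thus reach no further than 0.66 in the first and 0.56 below 0 in the second of these comparisons.

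**Figure D5:**
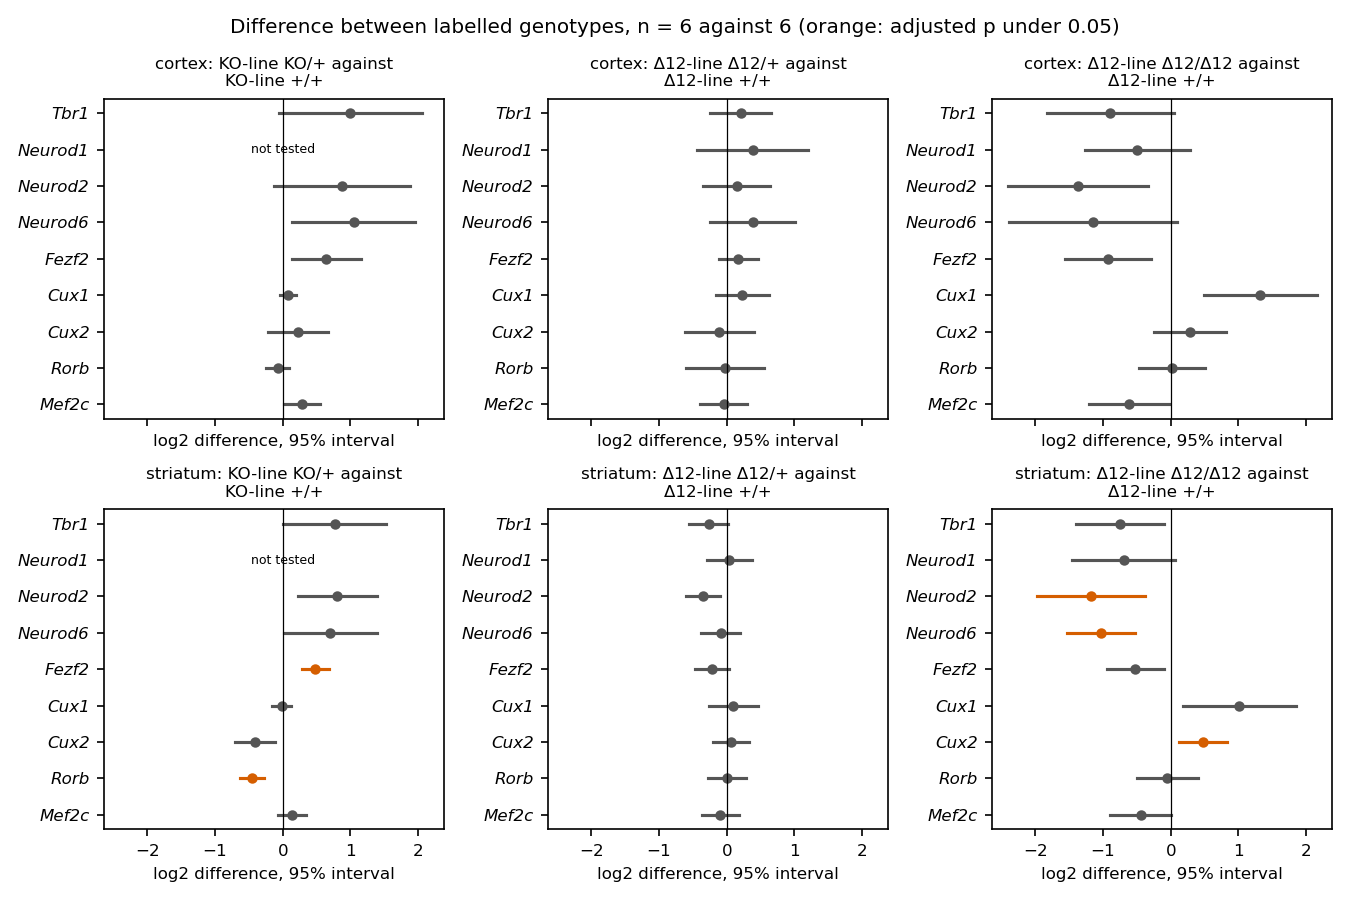
Log2 difference (x axes) of each transcription factor between labelled genotypes, with its 95% interval, in 6 comparisons of 6 against 6 libraries. Genes called at an adjusted p under 0.05 are orange: Fezf2 and Rorb for KO/+ in striatum, and Neurod2, Neurod6 and Cux2 for Δ12/Δ12 in striatum.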

How the data were processed

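RNA-Seq was measured in 60 libraries, grouped by the labels of tissue, line and genotype (6 libraries each, replicate numbers within sex). The authors deposited FPKM per gene entry with interval bounds, in the layout of Cufflinks output with Ensembl identifiers on GRCm38. The submitters' processing notes name Trimmomatic 0.30, TopHat2 2.0.14, SAMtools 1.3 and HTSeq 0.6.1p1 and the build GRCm38.p4, and a program that made the FPKM is not given in the sources used here. A library labelled cortex and one labelled striatum share line, genotype, sex and number in their labels, and may come from the same mouse. The main test of labelled tissues did not pair them. Nothing in the labels says more on how replicates were prepared, so p-values measure the spread between these libraries.

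Of 47597 entries, 23 with a status other than OK were left out. FPKM were divided by the median ratio to the geometric mean over 13235 entries above 0 in all libraries. Tests were made with limma 3.58.1 in R 4.3.3 on log2(rescaled FPKM + 0.5), with labelled sex as a covariate (for labelled tissues, the 10 combinations of genotype and sex), among genes with a mean of at least 0.5, with Benjamini-Hochberg adjustment over all genes. Fold changes on this scale understate those of low genes. Depth was 12.7 to 27.5 M fragments per library (median 17.0), derived from the bounds of the deposited intervals over 4104 single-transcript genes. Where reads are shared between transcripts, fragments from these bounds are not whole and are given as a measure of precision. The script was tested on simulated data.

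The 9 genes and the marker lists were chosen with earlier results of these data known. Named with a test are the genes called, together with Tbr1, Fezf2 and Cux2. Named otherwise are the 2 nearest genes by Pearson's r in each class and, of each list, up to 4 genes with the highest mean and the transcription factors that were called, of which some are not reported here. Single values outside this rule were named after they were seen. The sums of lists set beside Cux2, Rorb and the other genes were also chosen after seeing the data. Same-numbered libraries did not deviate together between genotypes (0 of 6 pairs with r over 0.1 in each genotype comparison). Between labelled cortex and labelled striatum, 3 of 30 such pairs were over that limit, with a mean r of -0.0074 and a highest of 0.13. Alternatives were the FPKM as deposited, quantile normalization, another pseudocount, no filter, other covariates, a replicate block and each library left out.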

Additional observations from a re-analysis of the deposited data

Results flagged for a closer look

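Of 90 sets of 6 libraries (9 genes in 10 groups), 7 held a library far from the other 5, in 5 libraries, while chance gives about 1 in 20. The library labelled cortex Δ12-line Δ12/+ female 1 was high in Tbr1 (8.57 rescaled FPKM, others 4.33 to 5.46), Neurod2 (7.91, others 4.92 to 5.80) and Cux2 (5.37, others 3.61 to 3.97), and its Slc17a7 was the highest of all libraries at 197. Female 1 of the cortex +/+ group in the Δ12 line had Neurod6 at 11.3 (others 1.96 to 4.40). Male 1 of the striatum Δ12/+ group had Neurod6 at 5.48 (others 2.88 to 3.75). The library labelled striatum KO-line KO/+ male 2 had Cux2 at 6.85 (others 4.16 to 4.77). The library labelled cortex KO-line +/+ male 2 had Neurod1 at 0.298 (others 0.0327 to 0.106).

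The log2 difference between libraries labelled Δ12/Δ12 and +/+ was not the same in labelled males and females by the interaction term of limma. In libraries labelled cortex 6 of the 9 genes were called (Tbr1, Neurod2, Neurod6, Fezf2, Cux1 and Mef2c), with 6898 of 15696 genes called in all. In libraries labelled striatum 8 of the 9 were called, Cux2 being the exception, with 8636 of 15467 genes. The differences, males minus females, ran from -2.29 for Cux1 to 2.97 for Neurod6 in cortex and from -2.40 for Cux1 to 2.17 for Neurod2 in striatum. The Δ12/Δ12 libraries labelled male were cortex-like and those labelled female striatum-like, while +/+ libraries of both labelled sexes were cortex-like. The term therefore holds a difference between the classes, which carries no test here. It cannot be read as an effect of the allele that depends on sex.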

How the results depend on the processing

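The count of 2 genes with separate ranges between classes was 4 on the FPKM as deposited (Neurod2, Fezf2, Cux1 and Mef2c), against 30.8% of all genes. It was also 4 without 2 or 3 libraries that stood apart, choices made after seeing the data, against 39.1% and 39.6% of all genes. The calls between labelled tissues stayed at 0 of 9 without 2 of them. In the striatum comparison of Δ12/Δ12, the 3 calls fell to 0 without the filter, without the sex covariate, with the replicate block, with Slc17a7 as a covariate and with labelled males only, and leaving out 1 library gave 0 to 5 (0 without any of the 6 libraries labelled female, 5 without +/+ male 2). For KO/+ in libraries labelled striatum, the 2 calls became 1 (Rorb) on deposited FPKM, with quantile normalization and without the filter, since Fezf2 fell below the filter in the former pair and had an adjusted p of 0.0512 in the latter. With the replicate block they became 0 (adjusted p = 0.0628 for Rorb and 0.0609 for Fezf2 from limma). With Slc17a7 as a covariate there were 3, and leaving out 1 library gave 2 to 3. For Δ12/Δ12 in libraries labelled cortex, leaving out 1 library gave 0 to 1 (Cux1, without +/+ male 2). Between genotypes, the same-numbered libraries share only a number, and the block changed no other count of calls. Some log2 fold changes that had not passed the test changed sign. Tbr1 for Δ12/Δ12 was 0.27 in cortex and 0.17 in striatum with Slc17a7 as a covariate, and 0.24 and 0.090 in labelled males only. Slc17a7 defines the classes by which the Δ12/Δ12 groups were split, so fits of Δ12/Δ12 with this covariate cannot tell the allele from the class. Cux2 between labelled tissues was -0.019 within striatum-like libraries. Cux2 for Δ12/+ ran from -0.21 to 0.034 in cortex and from -0.0025 to 0.12 in striatum when 1 library was left out. The number of all genes called also moved: for Δ12/Δ12 in striatum from 4381 to 26, 9, 5, 13 and 2 under the settings listed, and for KO/+ in striatum from 1093 to 306 on deposited FPKM, 431 without the filter and 302 with the block. In cortex it was 145 for Δ12/Δ12 against 60 with quantile normalization, 90 at the other pseudocount, 5 without the filter, 10 without sex, 9 with the block, 10 with Slc17a7, 18 in males and 3844 without +/+ male 2, and 14 for KO/+ against 110 on deposited FPKM. The cause of these changes was not tested. Low depth limits Neurod1 in striatum-like libraries, and wide deposited intervals limit Cux2 in cortex-like ones.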

Other observations

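Of the 6 interneuron genes, 5 had separate ranges between the classes, against 36.2% of all genes, and they went both ways. Sst, a peptide of cortical interneurons, had a median of 269 rescaled FPKM (207 to 428) in cortex-like and 104 (87.9 to 136) in striatum-like libraries, and Vip and Pvalb were higher in cortex-like libraries as well. Gad1, an enzyme that makes GABA, was at 73.2 (57.0 to 94.0) and 153 (126 to 198), and Gad2 was also higher in striatum-like libraries, while the ranges of Lhx6 overlapped. Of the olfactory bulb genes 2 of 3 had separate ranges, both higher in cortex-like libraries. Of the 2 oligodendrocyte genes measured, Mobp was at 75.2 (41.7 to 133) and 272 (195 to 347), and Mog at 42.3 (25.1 to 63.2) and 31.5 (22.7 to 45.5), with ranges that overlapped. Separate ranges were found in 0 of 3 astrocyte genes, 1 of 3 microglia genes and 1 of 4 thalamus genes.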
